A study of Mus musculus with 4 samples.

Results

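Hyaluronan is made, cut and bound by a small set of gene products, and 8 of their genes are described here in mouse keratinocytes (KCs): Has1, Has2, Has3 and Ugdh for synthesis, Hyal1, Hyal2 and Cemip for breakdown, and Cd44 for binding. They were taken by gene name from the deposited tables, and all 8 were among the 25814 genes listed. The study asked how loss of the osmosensitive transcription factor NFAT5 changes transcription in KCs. Primary KCs from the tails of adult 129/sv mice were grown untreated in serum-free medium with 0.06 mM calcium, and polyadenylated RNA was sequenced from 2 libraries labelled Wildtype (WT) and 2 labelled Nfat5-Knockout (Nfat5-/-), with 2 independent experiments given for both genotypes. Per the methods, the WT mice were littermates of the Nfat5-/- mice, the tails of both travelled on ice before the cells were prepared, and mice on this background were described as small, with kidney atrophy and raised blood sodium. Nfat5 was disrupted in the animal, with no cell type named, so the cells may have developed in animals that differed by genotype in more than the KC.

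Hyaluronan is a long, unbranched sugar polymer of the extracellular matrix that holds water, and in the epidermis it fills the spaces between KCs. It is not built in the Golgi like other glycosaminoglycans. Hyaluronan synthases in the plasma membrane join UDP-glucuronic acid and UDP-N-acetylglucosamine and push the chain out of the cell. Outside, hyaluronidases cut it to fragments, and CD44 on the cell surface binds both long and short chains. NFAT5 is activated by hypertonic conditions and binds tonicity-responsive elements (TonE) in DNA, and hyaluronan is an osmotically active part of the epidermal matrix.

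The libraries held 16219445 and 21612980 gene reads (WT 1 and 2) and 23494436 and 18645422 gene reads (Nfat5-/- 1 and 2). The floor of 3 reads came to between 0.128 and 0.185 CPM (reads scaled to library size), for counting error only. Basal KC markers summed to between 10882 and 12605 RPKM (exon reads scaled to exon length and library size), so the cells carried a basal profile. Suprabasal KC markers summed to 5.51 and 4.97 RPKM (WT 1 and 2) and to 7.31 and 10.5 RPKM (Nfat5-/- 1 and 2). Nfat5 itself had RPKM values of 1.67 and 3.002 for the WT pair and 2.02 and 2.78 for the Nfat5-/- pair. Its gene reads did not separate the genotypes (log2 fold change 0.09, adjusted p = 0.913 by edgeR), and a value per gene cannot show whether single exons are missing, so the groups are called the libraries labelled WT and Nfat5-/-. Smooth muscle markers had the highest sums of the other lists, 184 and 151 RPKM for WT 1 and 2 and 518 and 819 RPKM for Nfat5-/- 1 and 2. Acta2 and Tagln carried these sums. The defining marker Myh11 reached at most 0.294 RPKM, with 1 and 1 reads in WT and 22 and 40 in Nfat5-/-. Des had 1 read in all and was not tested. The 4 tested markers were all higher in Nfat5-/- at an adjusted p under 0.05 by edgeR, beside 0.943% of all genes tested. Melanocyte markers summed to 7.29 and 6.99 RPKM against 2.04 and 2.89 RPKM. Fibroblast, leukocyte and endothelial markers stayed below 2.5 RPKM in sum in each library, and 0 markers of these lists were at 0 in all 4 libraries. In bulk RNA, fewer cells of a type and less RNA per cell cannot be told apart.

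The sequence just before the start of a gene is where TonE would first be looked for. The set of RefSeq promoters used here (build GRCm38.p6) gave a start for 6 of the 8 genes, with no entry for Has2 and Has3. The 250 bases before it are shown for the neighbouring hyaluronidase genes Hyal1 (chr9:107576700-107576949, plus strand) and Hyal2 (chr9:107568913-107569162, plus strand), which lie side by side, and for Ugdh (chr5:65435843-65436092, minus strand) and Cd44 (chr2:102901666-102901915, minus strand), the other 2 well measured genes. Capitals mark GGGCGG, the core of the GC box bound by Sp-family factors, or its reverse complement. Against the genes as the deposited tables give them, the RefSeq start lies at the edge of Cd44 and inside Hyal1, Hyal2 and Ugdh.
Hyal1: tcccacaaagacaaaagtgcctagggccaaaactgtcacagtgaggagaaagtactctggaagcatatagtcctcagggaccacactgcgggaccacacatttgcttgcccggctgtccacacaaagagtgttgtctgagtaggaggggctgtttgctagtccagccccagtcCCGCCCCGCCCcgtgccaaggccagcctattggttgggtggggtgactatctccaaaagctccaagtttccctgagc
Hyal2: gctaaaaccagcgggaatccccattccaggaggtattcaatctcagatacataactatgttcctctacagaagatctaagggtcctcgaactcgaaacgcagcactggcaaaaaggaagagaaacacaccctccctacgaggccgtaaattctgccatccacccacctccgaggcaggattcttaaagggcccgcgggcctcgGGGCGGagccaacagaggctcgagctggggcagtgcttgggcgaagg
Ugdh: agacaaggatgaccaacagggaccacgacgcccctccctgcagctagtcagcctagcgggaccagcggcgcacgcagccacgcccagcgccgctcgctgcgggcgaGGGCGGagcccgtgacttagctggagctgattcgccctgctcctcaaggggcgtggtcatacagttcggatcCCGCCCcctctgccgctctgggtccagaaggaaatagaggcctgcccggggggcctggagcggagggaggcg
Cd44: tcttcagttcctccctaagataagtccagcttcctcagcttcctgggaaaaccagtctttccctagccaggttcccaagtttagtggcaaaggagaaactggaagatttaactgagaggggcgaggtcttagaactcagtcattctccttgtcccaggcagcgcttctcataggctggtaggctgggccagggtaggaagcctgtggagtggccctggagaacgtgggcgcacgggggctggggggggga
None of the 6 windows held TGGAAA, the core of the TonE motif used here, on either strand. This string was found in 18.6% of 32851 RefSeq promoters cut to the same length. The longer TonE motif, which contains that core, was likewise in 0 of 6, against 4.31% of promoters. GGGCGG was in 4 of the 6 windows (Hyal1, Hyal2, Ugdh and Cemip), against 32.7% of promoters. In Hyal1 its 2 copies overlapped. Cemip alone held TATAAA, against 12.4% of promoters. These are matches of letters in short windows, and neither more distant elements nor other forms of the NFAT5 site were searched.

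Expression of the 8 genes spread over several orders of magnitude. Cd44 was far above the rest, with a mean of 252.7 RPKM over the 4 libraries, followed by Hyal2 (25.7 RPKM), Ugdh (11.8 RPKM) and Hyal1 (5.72 RPKM). The synthases were scarce: Has2 had a mean of 0.559 RPKM, Has3 of 0.110 RPKM and Has1 of 0.0310 RPKM, with Cemip at 0.300 RPKM between Has2 and Has3. Over the 4 libraries the ranges of neighbours in this order were separate, except for Has2 with Cemip and Has3 with Has1. RNA of the receptor and of both hyaluronidases was thus far more abundant per length than RNA of the synthases.

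**Figure D1:**
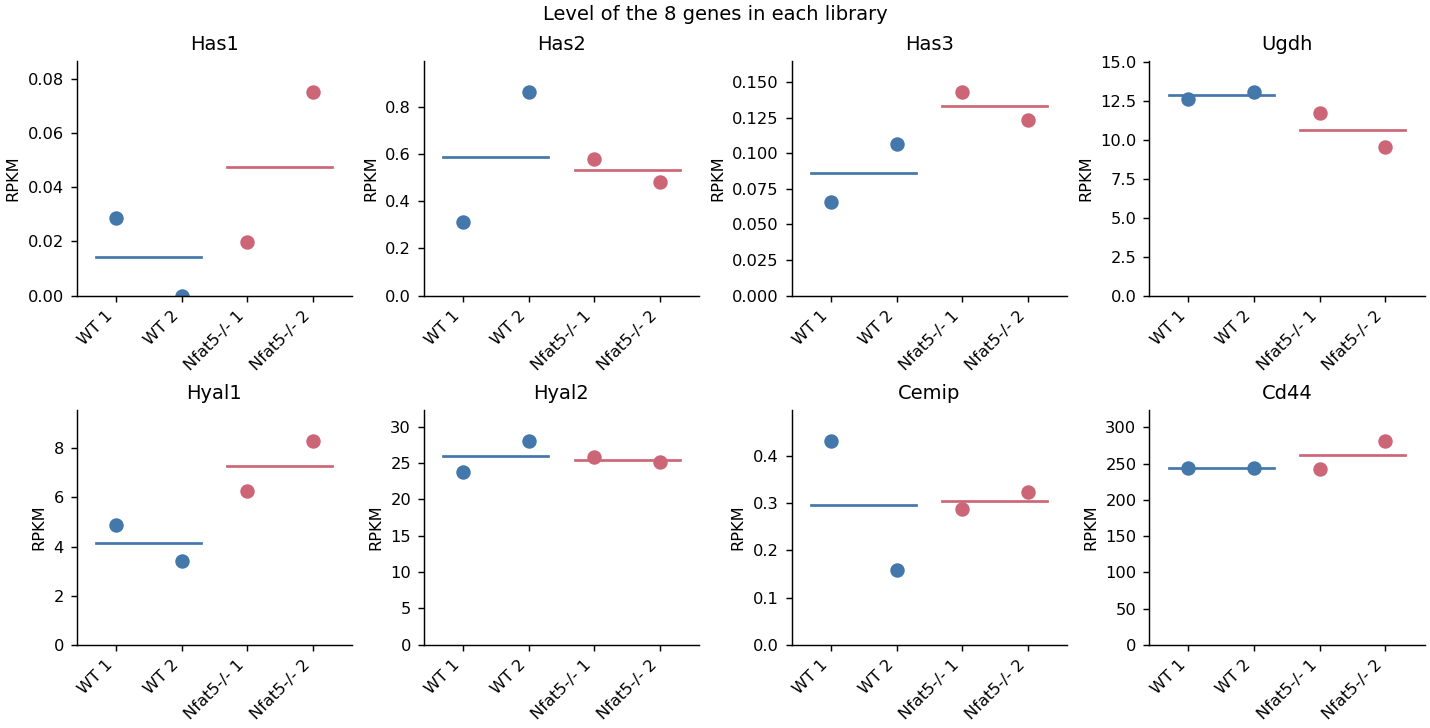
Points give the deposited RPKM (vertical axes, each from 0) of the 8 genes in the 4 libraries, blue for WT and red for Nfat5-/-, and lines give group means of 2 libraries. Hyal1 was higher in both Nfat5-/- libraries (6.28 and 8.31 RPKM) than in both WT libraries (4.87 and 3.42 RPKM), Ugdh was lower in both, and Hyal2 and Cd44 overlapped between the genotypes.

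Between the genotypes, none of the 8 genes passed the threshold in the test across all genes. Hyal1 came closest, at 1.78-fold higher in the libraries labelled Nfat5-/-. Ugdh was 0.828 times its WT level in RPKM, and Hyal2 and Cd44 were nearly level. Of the 8 genes, 7 had enough reads to be tested with edgeR's quasi-likelihood test, all but Has1, and 0 of the 7 had a Benjamini-Hochberg adjusted p under 0.05, where 1.27% of the 12614 genes tested did. At an unadjusted p under 0.05 the count was 1 of 7 (Hyal1), beside 14.6% of all genes. DESeq2 at an adjusted p under 0.05 called 1 of 7 (Hyal1), beside 3.38% of all genes. RPKM values of the genotypes were apart for 3 of the 7, a share of 42.9% beside 46.5% of all genes tested. Has3 and Hyal1 were the higher ones (background 21.6%) and Ugdh the lower one (background 25%). The median log2 fold change of the 7 was 0.10, against -0.01 over all genes tested.

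**Figure D2:**
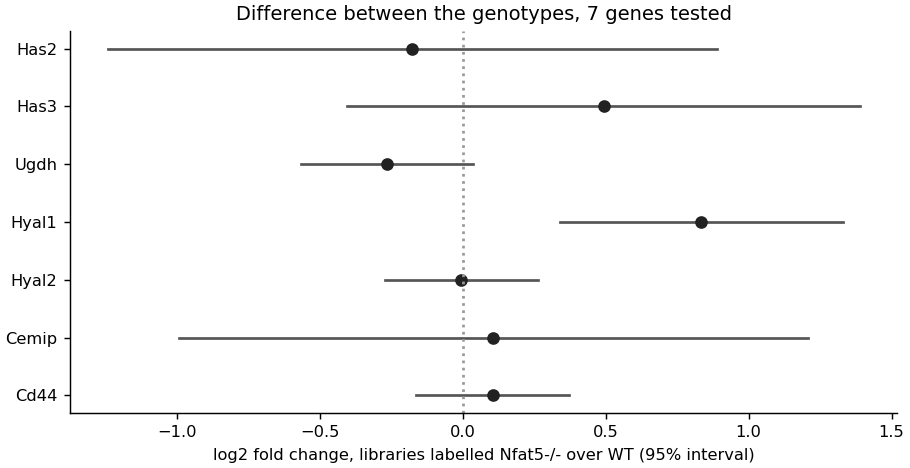
Points give the log2 fold change of the 7 genes tested (horizontal axis, Nfat5-/- over WT, 2 libraries each), with lines for the 95% interval from edgeR. The interval of Hyal1 (0.34 to 1.33) lay above 0 and the other 6 included it, with narrow intervals for Hyal2 and Cd44 and wide ones for Has2, Has3 and Cemip.

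Synthesis starts with sugar supply. Ugdh (chr5:65413221-65435949 on GRCm38, the build of all gene positions given here, minus strand, 14 exons) encodes UDP-glucose dehydrogenase, which oxidizes UDP-glucose to UDP-glucuronic acid. It was read 560 and 771 times in WT and 748 and 481 times in Nfat5-/-, or at 12.6 and 13.1 RPKM against 11.8 and 9.54 RPKM. Both Nfat5-/- libraries lay below both WT libraries, and Nfat5-/- 2 lay lowest. The group means were 12.9 ± 0.329 RPKM and 10.6 ± 1.57 RPKM (SD, n = 2 each). From gene reads edgeR gave a log2 fold change of -0.26 (SE 0.13, 95% interval -0.57 to 0.04), with an adjusted p of 0.402. Of the exon reads, 89.6% were placed uniquely, and on those alone the value was -0.22. Leaving out Nfat5-/- 2 gave -0.14, and leaving out Nfat5-/- 1 gave -0.41.

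Has2 (chr15:56665627-56694539, minus strand, 4 exons) encodes the synthase best known from development and wounding, which makes very long chains. Its reads numbered 23 and 86 in WT and 61 and 41 in Nfat5-/-, at 0.312 and 0.863 RPKM against 0.578 and 0.482 RPKM. The WT libraries were the lowest and the highest of the 4, with the Nfat5-/- libraries between them. This spread was beyond counting error, since the 95% Poisson interval was 0.899 to 2.13 CPM in WT 1 and 3.18 to 4.91 CPM in WT 2. The means of 0.588 ± 0.390 RPKM and 0.530 ± 0.0679 RPKM (SD, n = 2 each) differed by less than the spread within WT. The log2 fold change of -0.18 (SE 0.45, interval -1.24 to 0.89, adjusted p = 0.899 by edgeR) became 0.78 without WT 2 and -0.70 without WT 1, so that the WT library kept decided its sign.

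Has3 (chr8:106870242-106884566, plus strand, 8 exons), the synthase of shorter chains, had 11 and 19 reads in WT and 25 and 21 in Nfat5-/-. In RPKM this was 0.0660 and 0.106 against 0.143 and 0.123. Both Nfat5-/- libraries were above both WT libraries, but the Poisson intervals of all 4 overlapped. The log2 fold change was 0.49 (SE 0.38, interval -0.40 to 1.39, adjusted p = 0.611 by edgeR), so that neither no change nor a 2-fold rise lay outside the interval. Has3 shares 352 exon bases with Chtf8 on the opposite strand in GENCODE M21, and Chtf8 stood at 47.2 to 54.4 RPKM. No source says that strand was used in counting, but 96.6% of the Has3 exon reads were placed uniquely, and on those alone the log2 fold change was 0.53. Between 12% and 36.4% of the Has3 reads lay in introns, and 1 of them in all libraries crossed a splice junction.

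Has1 (chr17:17843328-17855188, minus strand, 5 exons), the remaining synthase, was near the detection floor, with 5, 5, 2 and 3 reads in WT 1, WT 2, Nfat5-/- 1 and Nfat5-/- 2. Most of the WT reads were intronic: 1 and 0 lay in exons in WT and 1 and 3 in Nfat5-/-. No fold is given, and a difference between genotypes was not detectable at this depth.

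Summed over the 3 synthases, Has RNA came to 0.407 and 0.969 RPKM for WT and to 0.741 and 0.680 RPKM for Nfat5-/-. The ratio of the means was 1.03, with p = 1 in a two-sided exact permutation test, in which 2 against 2 libraries cannot go below 0.333. Without WT 2 the ratio was 1.75, and without WT 1 it was 0.733. Has2 made up 70.9% to 89.0% of the sum in each library, so this total followed Has2.

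**Figure D3:**
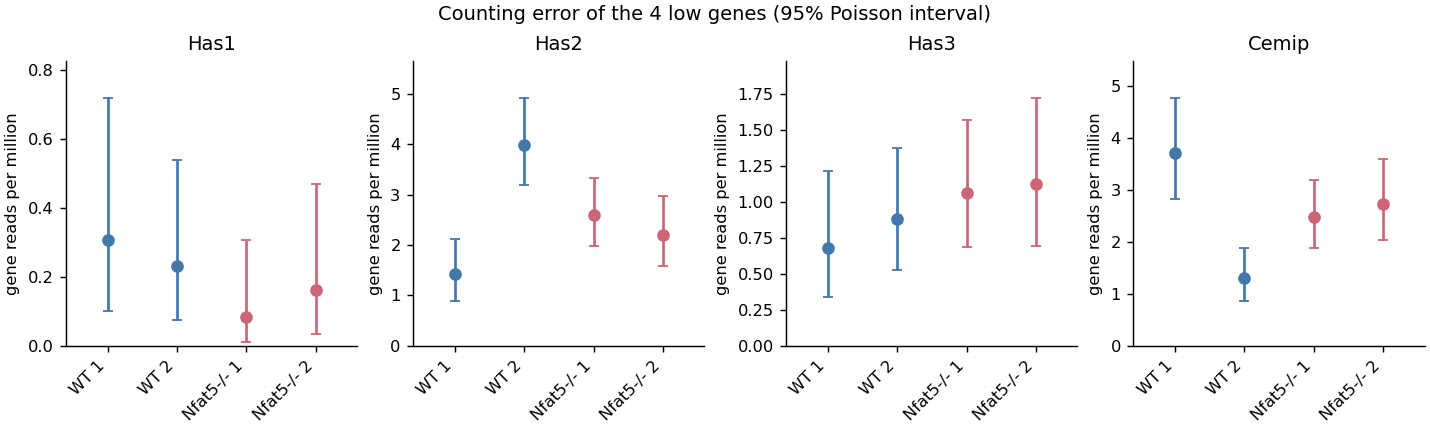
Points give CPM (vertical axes, from 0) of Has1, Has2, Has3 and Cemip in the 4 libraries with 95% Poisson intervals, blue for WT and red for Nfat5-/-. The intervals of the 2 WT libraries do not meet for Has2 or for Cemip, in opposite order, and those of Has1 and Has3 overlap in all 4 libraries.

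Breakdown rests mainly on hyaluronidases. Hyal2 (chr9:107567945-107572779, plus strand, 13 exons) encodes an enzyme anchored to the cell surface, which cuts long hyaluronan to intermediate fragments. Its reads numbered 1303 and 2054 in WT and 2057 and 1585 in Nfat5-/-, with 100% of the exon reads placed uniquely. RPKM values were 23.7 and 28.0 in WT and 25.8 and 25.1 in Nfat5-/-, so the Nfat5-/- libraries lay inside the WT range. The log2 fold change was -0.00 (SE 0.11), and its interval corresponded to 0.828-fold to 1.20-fold (adjusted p = 0.994 by edgeR). So close to 0, its sign was the same in 8 of 14 alternative analyses, and the values lay between -0.11 and 0.12. Among the genes described here, Hyal2 had one of the narrowest intervals.

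Hyal1 (chr9:107576927-107581710, plus strand, 12 exons) encodes the lysosomal hyaluronidase that degrades fragments after uptake, and begins 4147 bases beyond the end of Hyal2. It was read 307 and 291 times in WT and 577 and 600 times in Nfat5-/-. The RPKM values of 4.87 and 3.42 in WT and 6.28 and 8.31 in Nfat5-/- did not overlap. The means were 4.15 ± 1.03 RPKM and 7.29 ± 1.44 RPKM (SD, n = 2 each). On gene reads the log2 fold change was 0.83 (SE 0.21, interval 0.34 to 1.33, or 1.26-fold to 2.51-fold), with an unadjusted p of 0.00514 and an adjusted p of 0.131 by edgeR. It was positive in 14 of 14 alternative analyses, from 0.60 to 1.10 on the log2 scale, with an adjusted p between 7.97e-06 and 0.631. The threshold was passed in 3 of these: with DESeq2 (adjusted p = 0.0277), with no filter on low counts (7.97e-06) and without WT 1 (log2 fold change 1.10, 0.0339). Among all genes these analyses called 3.38%, 6.3% and 2.05%. The highest adjusted p, 0.631, was without Nfat5-/- 2, at a log2 fold change of 0.61. The 4 tested smooth muscle markers and 4 of 5 suprabasal KC markers also had higher RPKM in both Nfat5-/- libraries, beside 21.6% of all genes tested. The 4 smooth muscle markers passed the test and 0 of the 5 suprabasal markers did. Krt10 was lower (0.854 and 0.684 RPKM in WT, 0.550 and 0.520 RPKM in Nfat5-/-). The part of these markers in the Hyal1 value was not tested.

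Reads at this place had to be divided between overlapping genes. In GENCODE M21, Hyal1 shares 1920 exon bases, 50.8% of its own, with Naa80 on the same strand, which the deposited tables call Nat6. This gene encodes an enzyme that acetylates the start of actin. A further 159 bases are shared with Hyal3. Only 44.3% of the Hyal1 exon reads and 2.98% of the Nat6 exon reads were placed uniquely. Unique Hyal1 reads numbered 117 and 136 for WT and 274 and 254 for Nfat5-/-. Scaled to the full exon length, shared bases included, this was 1.86 and 1.63 RPKM against 3.01 and 3.52 RPKM. Such values compare libraries and do not give the level of Hyal1. These also did not overlap, and lay closer together within each genotype than the total did. Tested on unique exon reads, the log2 fold change was 0.92 with an adjusted p of 0.0514 by edgeR. Nat6, with RPKM values of 6.24 and 5.25 for WT and of 5.70 and 7.44 for Nfat5-/-, overlapped between genotypes (log2 fold change 0.27, adjusted p = 0.597 by edgeR). These Nat6 values rested mostly on shared reads, and its unique exon reads numbered 6 and 12 for WT and 17 and 12 for Nfat5-/-. Hyal3 had 7, 5, 14 and 6 reads and was not tested. The flanking genes Tusc2 (0.08) and Ifrd2 (-0.21) did not pass the test.

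**Figure D4:**
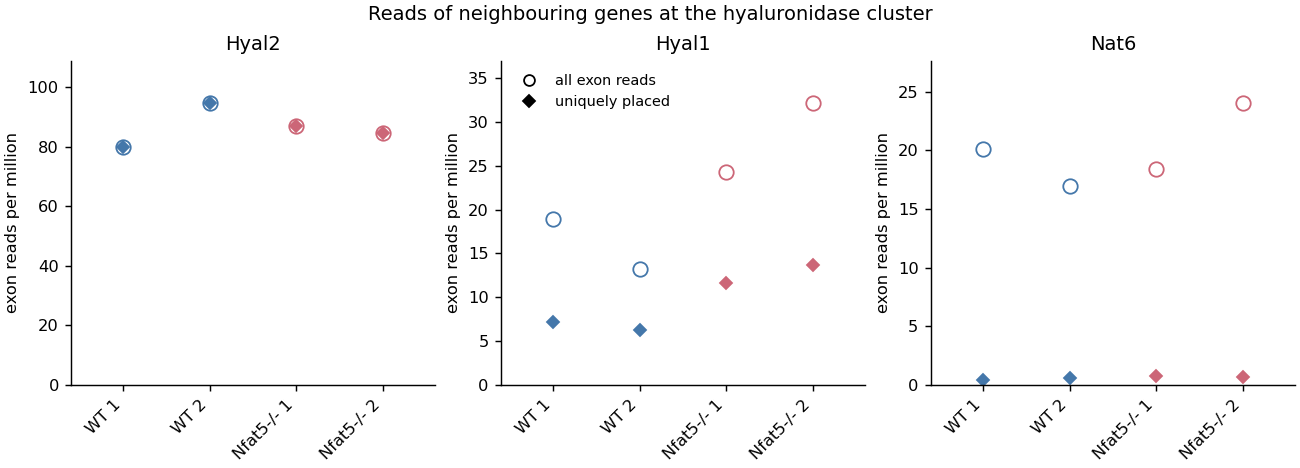
Vertical axes give exon reads scaled to the gene reads of the library (from 0) for the neighbours Hyal2, Hyal1 and Nat6 in the 4 libraries, with open circles for all exon reads and filled diamonds for uniquely placed ones. For Hyal1 both kinds were higher in Nfat5-/-, for Hyal2 the 2 kinds coincide, and for Nat6 2.98% of the exon reads were placed uniquely.

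Within the pair of hyaluronidases, Hyal1 made up 17.0% and 10.9% of the summed RPKM in WT and 19.6% and 24.9% in Nfat5-/-. The groups did not overlap, and the two-sided exact permutation test gave p = 0.333, the smallest that 2 against 2 libraries allow. The sum of Hyal1 and Hyal2 was 28.6 and 31.5 RPKM for WT and 32.1 and 33.4 RPKM for Nfat5-/-, and Hyal2 carried most of it in each library.

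Cemip (chr7:83932857-84086502, minus strand, 29 exons) encodes a hyaluronan-binding protein needed for cutting hyaluronan in fibroblasts. WT libraries held 60 and 28 reads of it and Nfat5-/- libraries 58 and 51, at 0.431 and 0.159 RPKM against 0.286 and 0.324 RPKM. As for Has2, the WT libraries were the extremes, but here WT 1 was the high one. Their Poisson intervals, 2.82 to 4.76 CPM and 0.861 to 1.87 CPM, did not meet. The log2 fold change of 0.11 (SE 0.47, interval -0.99 to 1.21, adjusted p = 0.943 by edgeR) moved to 1.03 without WT 1 and to -0.49 without WT 2. Tmem2, a related surface protein with hyaluronidase activity, was steadier and higher, with 3.50 and 3.85 RPKM for WT and 3.92 and 3.76 RPKM for Nfat5-/- (log2 fold change 0.08, adjusted p = 0.819 by edgeR).

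Cd44 (chr2:102811141-102901665, minus strand, 30 exons) encodes the main surface receptor for hyaluronan, which basal KCs carry in isoforms made by alternative splicing. It ranked between 223 and 271 by RPKM among all genes of each library. Reads numbered 23972 and 32179 in WT and 34188 and 31464 in Nfat5-/-. The RPKM values were 244 and 244 in WT, nearly identical, and 242 and 281 in Nfat5-/-. Nfat5-/- 1 thus matched WT, and Nfat5-/- 2 alone was higher. The means were 243.7 ± 0.260 RPKM and 261.7 ± 27.8 RPKM (SD, n = 2 each), and the log2 fold change was 0.10 (SE 0.11, interval 0.893-fold to 1.29-fold, adjusted p = 0.731 by edgeR). Without Nfat5-/- 2 it was -0.02 and without Nfat5-/- 1 it was 0.22. At this depth a 1.5-fold change in either direction lay outside the interval.

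Cd44 was the one gene of the 8 with enough intron reads to test. Introns held 4.49% and 5.08% of its reads in WT and 3.58% and 3.45% in Nfat5-/-. The groups did not overlap, as was the case in this direction for 39.7% of the genes with such reads. Across whole libraries the intron share was also lower in Nfat5-/-, at 1.97% and 1.94% in WT and 1.85% and 1.79% in Nfat5-/-. Intron reads alone gave a log2 fold change of -0.08 (adjusted p = 0.915 by edgeR), where 0.0871% of the genes tested passed. The ratio of intron to exon reads had a log2 difference of -0.36 (SE 0.19, adjusted p = 0.407 by edgeR), where 1.03% of the genes tested passed. Isoforms of Cd44 cannot be told apart from reads summed per gene.

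Other genes of the pathway were listed in 6 groups of 72 gene names in all, of which 71 were in the tables and 50 could be tested. Of the 50, 1 rose and 0 fell at an adjusted p under 0.05 (edgeR), beside a background of 0.943% higher and 0.325% lower, and 8 had an unadjusted p under 0.05, beside 14.6% of all genes. The median log2 fold change was -0.05. The gene that rose was Vcan, which encodes versican, a large proteoglycan that binds hyaluronan. RPKM values were 1.43 and 1.70 for WT and 3.41 and 4.82 for Nfat5-/-. edgeR gave a log2 fold change of 1.40 (SE 0.19, adjusted p = 0.0251). It was positive in 14 of 14 alternatives and passed in 12, the exceptions being limma-trend on log2(RPKM + 1), with 0.98 and an adjusted p of 0.0526, and leaving out Nfat5-/- 2, with 1.11 and 0.106. Beside it, 4 of 4 tested smooth muscle markers rose as well. The 2 tested fibroblast markers had log2 fold changes of 0.74 (Col1a1) and 0.78 (Pdgfra), and 0 of them passed. The part of both marker lists in the Vcan value was not tested.

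**Figure D5:**
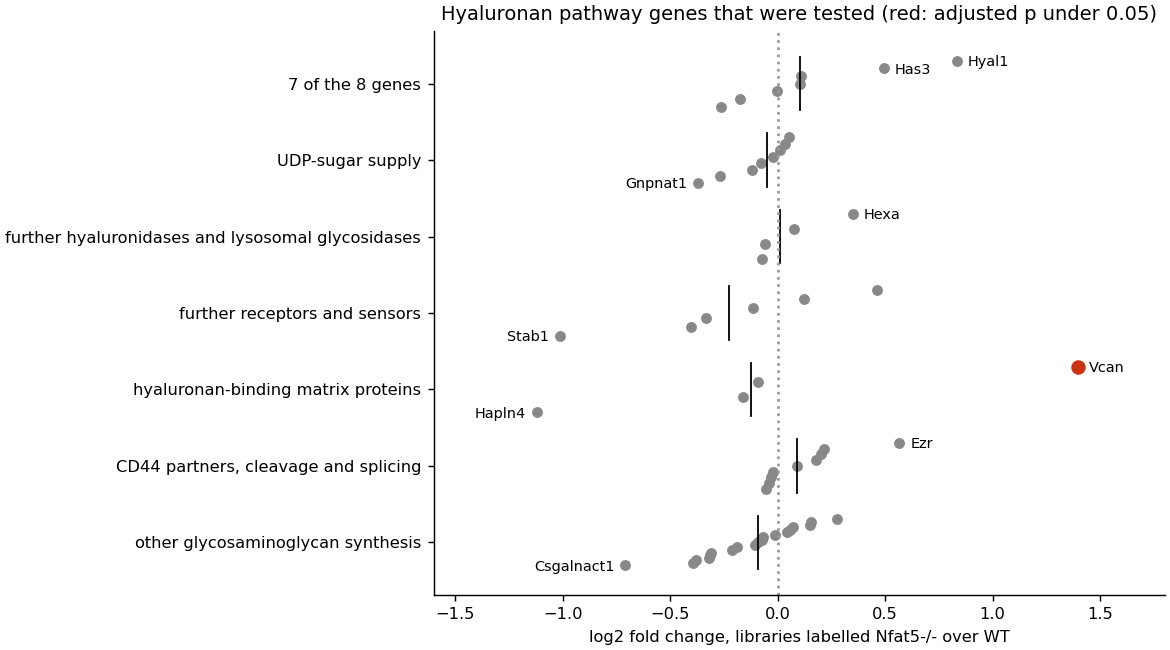
Each point is a tested gene placed by its log2 fold change (horizontal axis, Nfat5-/- over WT), in 7 rows for the genes described here and the 6 further groups, with black bars for medians and red for an adjusted p under 0.05. Vcan (1.40) is the sole red point, and the medians lie between -0.22 and 0.10.

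Among the 8 genes for UDP-sugar supply, 0 passed and the median was -0.05. The largest change was in Gnpnat1, which acetylates glucosamine phosphate on the way to UDP-N-acetylglucosamine, with RPKM values of 12.4 and 11.1 for WT and of 9.69 and 8.19 for Nfat5-/- (log2 fold change -0.37, adjusted p = 0.239). Only 24.8% of its exon reads were unique. Uap1, which makes UDP-N-acetylglucosamine itself, was the highest, at 26.0, 25.6, 26.8 and 21.8 RPKM in the same order of libraries, and overlapped. Ugdh, on the other sugar branch, was likewise well above the synthases it feeds: the ratio of Ugdh to summed Has RPKM was between 13.5 and 31.0.

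Of 10 gene names listed as further hyaluronidases and lysosomal glycosidases, 9 were found, 4 were tested and 0 passed. Hyal3, Hyal4, Hyal5, Hyal6 and Spam1, the last known from sperm, had too few reads. Hexa encodes a subunit of a lysosomal enzyme that trims the fragments left by hyaluronidase. Hexa had RPKM values of 18.8 and 12.5 for WT and of 19.7 and 19.6 for Nfat5-/- (log2 fold change 0.35, adjusted p = 0.447). The WT libraries decided its size, at 0.68 (adjusted p = 0.0529) without WT 1 and 0.077 without WT 2.

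Of 7 further receptors and sensors, 6 were tested and 0 passed, with a median of -0.22. Stab1, a scavenger receptor of macrophages and sinusoidal endothelium, had RPKM values of 1.75 and 2.27 for WT and of 1.13 and 0.864 for Nfat5-/- (log2 fold change -1.01, SE 0.19, adjusted p = 0.0621). It was negative in 14 of 14 alternatives and passed in 5, with an adjusted p between 4.18e-06 and 0.384. Leukocyte markers summed to 1.12 and 2.41 RPKM (WT) and 2.31 and 1.94 RPKM (Nfat5-/-), which overlapped. Endothelial markers summed to 0.751 and 0.726 RPKM (WT) and 0.528 and 0.675 RPKM (Nfat5-/-). Both Nfat5-/- sums lay below both WT sums, the direction of Stab1. By RPKM, 0 of 2 tested endothelial markers were apart between genotypes. By CPM of gene reads, Pecam1 was lower in both Nfat5-/- libraries and Kdr overlapped. Their log2 fold changes were -0.699 (Pecam1, adjusted p = 0.383) and -0.139 (Kdr, adjusted p = 0.864) by edgeR. Of the melanocyte markers, 4 of 4 tested were lower in both Nfat5-/- libraries, beside 25% of all genes tested. The test was passed by 1 of them (Tyrp1, adjusted p = 0.0203 by edgeR), beside 0.325% of all genes tested that were called lower. The part of endothelial and melanocyte markers in the Stab1 value was not tested. Tlr2, a sensor said to respond to hyaluronan fragments, was the highest of the group, at 4.71 and 5.71 RPKM against 6.97 and 7.09 RPKM (log2 fold change 0.46, adjusted p = 0.229).

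Matrix proteins that bind hyaluronan were mostly too low to test, with 4 of 18 tested. Besides Vcan, C1qbp was the highest, with 104 and 93.7 RPKM for WT and 94.3 and 80.4 RPKM for Nfat5-/-. It encodes a mainly mitochondrial protein that also binds hyaluronan, and its adjusted p was 0.583. By contrast all 9 genes of CD44 partners, cleavage and splicing were tested, and 0 passed. Ezrin and moesin link the tail of CD44 to actin. Ezr had RPKM values of 80.0 and 82.8 for WT and of 112 and 126 for Nfat5-/- (log2 fold change 0.57, SE 0.11, adjusted p = 0.0647), positive in 14 of 14 alternatives and past the threshold in 2, with an adjusted p between 0.00016 and 0.349. Msn, the highest at 334, 391, 414 and 408.5 RPKM, lay above Cd44 in each library (log2 fold change 0.20, adjusted p = 0.455).

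Glycosaminoglycans other than hyaluronan draw on the same UDP-glucuronic acid. Of 20 genes for their synthesis, 19 were tested and 0 passed, with a median of -0.09. Csgalnact1, which starts chondroitin chains, had the largest difference (log2 fold change -0.71, adjusted p = 0.434) at 0.136 to 0.384 RPKM, and Ext2, a heparan sulfate polymerase subunit, was the highest, at 23.8 to 25.9 RPKM and -0.01. The value of Csgalnact1 was -0.96 without WT 1 and -0.36 without WT 2, -1.02 on exon reads and -0.18 with limma-trend on log2(RPKM + 1).

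Finally, genes with the most similar profile were sought among all genes tested, by the root mean square (RMS) difference of centred log2 CPM over the 4 libraries. Nearest to Cd44 were Nrip1 (RMS 0.00304), Scaf4 and Dag1. Nearest to Hyal1 were Cobl (RMS 0.0312), Tcp11l2 and Reps2, and none of these 3 passed the test (adjusted p 0.163 to 0.304). For Ugdh they were Ndc1 (RMS 0.0120), Ppif and Spcs3. Hyal2 lay nearest to Yipf5 (RMS 0.00880), Man1a and Cep41, and Has3 to Tubb2b (RMS 0.0121), Ilk and Tlr2. The erratic genes had more distant neighbours, Gpa33 (RMS 0.0552), Gdpd3 and Gm20425 for Has2 and Crct1 (RMS 0.0904), Zeb1 and N4bp2l1 for Cemip. With 4 points per profile, such likeness is a description alone.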

How the data were processed

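The authors trimmed the reads of the 4 poly(A) libraries (no molecular identifiers) and mapped them to GRCm38 with the CLC Genomics Workbench at default settings. Per gene, the authors deposited read counts, not normalized, for the whole gene, its exons and its introns, with uniquely placed exon reads apart, and RPKM made from exon reads. Reads fitting several genes were divided by the software, so counts of overlapping genes are uncertain. Groups and replicate numbers come from the sample titles. Per the study, the cells came from WT and Nfat5-/- sibling mice, and the series text gives 2 independent experiments for both genotypes.

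Total gene counts were tested with edgeR 4.0.16 (quasi-likelihood) in R 4.3.3, on all 4 libraries with genotype as the sole term, after filterByExpr and with TMM factors of 0.980 to 1.01. Two-sided p-values received the Benjamini-Hochberg adjustment across the 12614 genes tested, and SE is the log2 fold change divided by the square root of F. The prior count for log2 CPM was 2. Replicates differed beyond sampling noise (chi-square per degree of freedom 16.7 in WT and 17.3 in Nfat5-/-). DESeq2 1.42.0 and limma 3.58.1 were alternatives, the limma fits leaving out genes listed at 0 RPKM in any library. The intron fits and this filter were added after the data were seen. Simulated counts were used to test the scripts. In each further group, genes past the threshold were named (otherwise the largest log2 fold change), with the highest mean RPKM, other genes being named after their values were seen. A gene that this rule named is not reported here. The 8 genes, the groups and the markers were chosen with earlier results of these data known, so their counts are a description. Motifs and overlaps used RefSeq and GENCODE M21.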

Additional observations from a re-analysis of the deposited data

How the results depend on the processing

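The count of genes past the threshold, 160, moved to 1137 with no filter on low counts, to 426 with DESeq2 and to 364 at an adjusted p under 0.1, and ranged from 16 (without Nfat5-/- 2) to 478 (without WT 2) when 1 library was left out. It was 31 without Nfat5-/- 1 and 268 without WT 1. In the other 8 alternatives it stayed within 1.5 times. Of the 7 genes described, 0 passed, against 1 (Hyal1) with no filter, 1 with DESeq2, and 0 to 1 when 1 library was left out (1 without WT 1, Hyal1). The ratio of summed Has RPKM of 1.03 ranged from 0.733 to 1.75 when 1 library was left out and was within the replicate spread otherwise. Log2 fold changes near 0 or with wide intervals turned sign, none of them past the threshold either way. Hyal2 (-0.00) became 0.0014 with RLE size factors, 1.5e-05 when each library had to hold 10 counts, 0.0013 with DESeq2 and 0.0015 with the replicate block, and ranged from -0.11 to 0.12 when 1 library was left out. Under the same omissions Has2 ranged from -0.70 to 0.78, Cemip from -0.49 to 1.03, Cd44 from -0.024 to 0.22, Uap1 from -0.21 to 0.045 and Ext2 from -0.073 to 0.057. The cause of these shifts was not tested.

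The replicate numbers pair no samples by the labels, and deviations of same-numbered libraries had a correlation of -0.065. With the number as a block 132 genes passed, none of the 7 among them, and Hyal1 had an adjusted p of 0.183. The 19 genes fitted both ways for these alternatives stayed on their side of the threshold under the block. The fits that left out a library assumed that the lone library varied like the other group. Depth limited Has1 and Has3, the spread between the WT libraries limited Has2 and Cemip beyond counting error, and 2 libraries a genotype limited all tests.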
